A study of Mus musculus with 3 samples.

Results

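The Egr and AP-1 immediate early genes were followed here as a group of 10 genes, Egr1, Egr2, Egr3, Fos, Fosb, Jun, Junb, Ier2, Ier3 and Atf3, in kidneys that lack Fgfrl1. They were chosen by name, and every non-control probe that the array annotation assigns to 1 of these symbols was kept. This gave 10 of 27745 gene names and 13 of the 41174 probes on the array. RNA came from kidney rudiments of C57BL/6 mouse embryos at E12.5. The 3 Fgfrl1-/- pools came from embryos with a constitutive knock-out of Fgfrl1, a receptor of the Fgf receptor family that has no intracellular kinase domain, and the 3 wildtype pools came from littermates. According to the labels, 6 to 9 rudiments were pooled per RNA preparation, so the spread between pools is not the spread between single embryos. Each Fgfrl1-/- pool was hybridized with 1 wildtype pool to 1 Agilent array read in 2 colours, with Cy3 for Fgfrl1-/- and Cy5 for wildtype on all 3 arrays. Since the dyes were swapped on 0 arrays, dye and genotype cannot be told apart in any value given here.

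Immediate early genes are transcribed within minutes after a growth factor, stress or mechanical stimulus reaches a cell, without new protein synthesis. The Egr genes encode zinc finger transcription factors. Fos and Jun family proteins, together with Atf3, are basic leucine zipper proteins that pair with each other to form AP-1. Receptors of the Fgf family can induce many of these genes through the ERK kinase cascade, which acts on ternary complex factors bound beside serum response factor (SRF) at a promoter element called the CArG box. Tissue dissection and warming can induce the same genes, so their level in dissected tissue is known to depend on handling.

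Promoter sequences of 7 of the 10 genes were found in the part of the RefSeq table of GRCm38.p6 that was searched. Egr3 and Ier2 were not listed in that part. Egr1 lies on a chromosome that was left out of the search, so its promoter was not examined. Of the 250 bases before each start, those of Egr2, Fos and Jun are shown, since these 3 genes are printed on the array in many copies and are compared in detail below. For Egr2, the middle of 5 listed starts was taken. Capitals mark a CArG box, which begins at position -72 from the start of Egr2.
Egr2, chr10:67537619-67537868, + strand: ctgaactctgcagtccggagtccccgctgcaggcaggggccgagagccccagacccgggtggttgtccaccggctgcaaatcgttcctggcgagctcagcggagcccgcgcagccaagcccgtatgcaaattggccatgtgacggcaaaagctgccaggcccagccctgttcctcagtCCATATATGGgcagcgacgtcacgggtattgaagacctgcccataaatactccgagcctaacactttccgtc
Fos, chr12:85473640-85473889, + strand: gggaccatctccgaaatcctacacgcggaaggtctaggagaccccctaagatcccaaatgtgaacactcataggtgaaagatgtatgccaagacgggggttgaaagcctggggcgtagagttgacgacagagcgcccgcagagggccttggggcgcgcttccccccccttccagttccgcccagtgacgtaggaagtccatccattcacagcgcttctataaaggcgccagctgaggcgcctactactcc
Jun, chr4:95052223-95052472, - strand: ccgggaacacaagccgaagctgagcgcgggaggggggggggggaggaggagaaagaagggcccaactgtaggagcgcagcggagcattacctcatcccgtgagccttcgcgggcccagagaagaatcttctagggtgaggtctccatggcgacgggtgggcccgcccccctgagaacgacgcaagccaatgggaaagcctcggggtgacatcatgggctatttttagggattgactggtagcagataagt

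These windows were searched on both strands for the CArG box, for the cyclic AMP response element TGACGTCA, for the AP-1 site TGACTCA and for the Egr sites GCGTGGGCG and GCGGGGGCG, none of which overlapped another in the 3 sequences. Within these windows, a CArG box was found at 4 of the 5 starts of Egr2 and in none of the other 6 genes found. Bases outside the windows were not searched, so a CArG box of Fos or another gene beyond its window would have been missed. The Fosb window held GCGGGGGCG. The windows shown for Fos and Jun held none of these letters. The part of the table that was searched held 32851 promoters of the same length, all of them outside chromosome 18. Of these, 1.47% held a CArG box, 1.55% TGACGTCA, 4.46% TGACTCA, 0.536% GCGTGGGCG and 2.57% GCGGGGGCG. A match is a description of letters and not a measured binding site.

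Arrays 2 and 3 shared a slide, and array 1 was on a slide of its own. Across probes, which do not count as replicates, ratios correlated with a Pearson's r of 0.713 between arrays 2 and 3, of 0.106 between arrays 1 and 2 and of 0.222 between arrays 1 and 3. Between 57.1% and 80.2% of the probes were well above background in a channel, and 0 spots were saturated. Fgfrl1 itself was at -1.21 on array 1, -1.51 on array 2 and -1.83 on array 3 as a log2 ratio to wildtype (mean -1.52, limma adjusted p = 0.0332), which follows the labels. All 8 markers of the metanephric kidney were well above background in wildtype on all 3 arrays.

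With the background correction used here, the large reduction of Egr1 was found in none of the other 9 early genes, and the sizes of the Egr2, Egr3 and Fos differences depended on that correction. A log2 fold change is given throughout as Fgfrl1-/- over wildtype, after background correction and loess normalization, and a probe passed the test at a Benjamini-Hochberg adjusted p below 0.05 in limma over all 41174 probes. Where a gene had 2 probes, the brighter stands for the gene. Of the 10 genes, 1 fell (Egr1) and 0 rose, against 0.398% of all probes that fell and 0.289% that rose. At an unadjusted p below 0.05, 4 genes were lower (Egr1, Egr2, Egr3 and Fos) and 1 was higher (Jun), against 8.2% and 7.69% of all probes. The median log2 fold change was -0.064 over the 10 genes and -0.063 over the 9 without Egr1, and that of all probes was 0.0037. Lower ratios on all 3 arrays were found for 5 of the 10 genes, higher ratios on all 3 for 1, and 4 genes changed sign between arrays. Over all probes, 19.2% were lower and 19.0% higher on all 3 arrays. Because the tissue is a mixture of cell types, fewer cells that express a gene and less RNA per cell cannot be told apart.

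**Figure D1:**
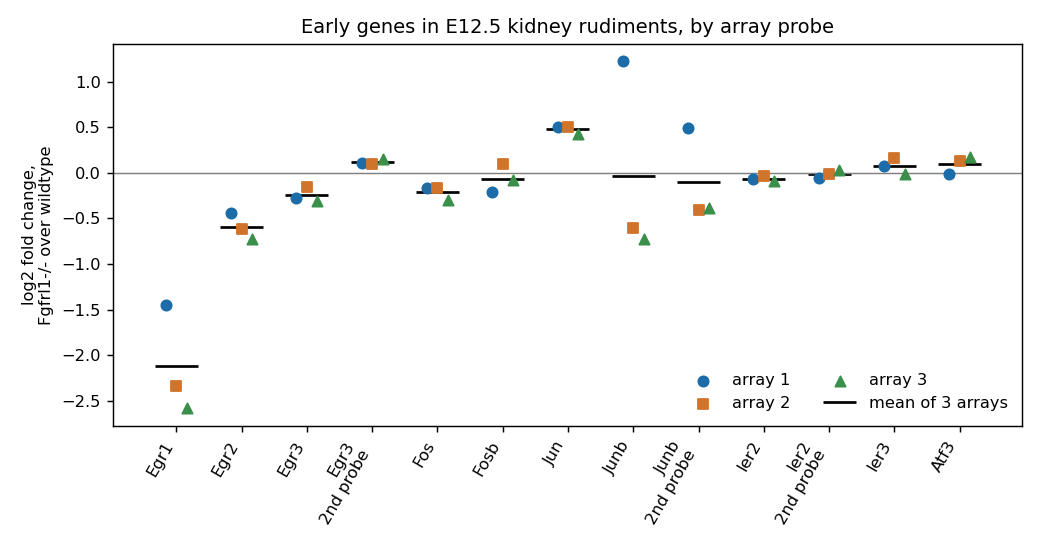
The vertical axis gives the log2 fold change of Fgfrl1-/- over wildtype for each of the 13 probes; points are the 3 arrays, told apart by shape and colour, and black lines are their means. Egr1 lies between -1.45 and -2.59, while Junb is at 1.23 on array 1 and at -0.60 and -0.72 on arrays 2 and 3.

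Egr1, a zinc finger factor that is a standard readout of ERK signaling, is measured by 1 probe on mouse chromosome 18, at 34990715 to 34990774 on mm8. On the log2 scale, its level in the Fgfrl1-/- pools was 7.86, 8.07 and 7.87 on arrays 1, 2 and 3, and in the wildtype pools 9.31, 10.40 and 10.46. The 3 Fgfrl1-/- pools lay close together and below all wildtype pools, and the wildtype pool of array 1 was lower than the other two. The log2 fold changes were -1.45, -2.34 and -2.59 (mean -2.13, SD 0.596, n = 3 arrays), which is a 4.36-fold reduction with a 95% confidence interval of -2.67 to -1.58 on the log2 scale (limma adjusted p = 0.0399). The authors had already reported Egr1 as reduced on these same arrays, and also by quantitative PCR at E12.5. Of all probes, 5 had a lower mean log2 fold change than Egr1. The direction was the same in all 16 alternative settings, with values between -2.49 and -1.90, and the test was passed in 10 of the 15 that had one. It was not passed with an offset of 0 (adjusted p = 0.381), with the scanner ratios (adjusted p = 0.164), with dim probes left out (adjusted p = 0.0525), without array 2 (-2.02, adjusted p = 0.295) or without array 3 (-1.90, adjusted p = 0.471). It was passed on arrays 2 and 3 alone, which share a slide (-2.46, adjusted p = 3.51e-09).

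Egr2, known for its role in hindbrain segmentation and in myelination, had lower values in Fgfrl1-/- but missed the threshold. Its level was 6.18, 6.45 and 6.28 in the Fgfrl1-/- pools and 6.62, 7.06 and 7.01 in the wildtype pools, again without overlap between the groups. The log2 fold changes were -0.44, -0.61 and -0.73 (mean -0.60, SD 0.142, n = 3 arrays, limma adjusted p = 0.0594). The probe, at chr10:66937367-66937426 on mm8, is printed 10 times on each array, and all 10, 9 and 10 spots that were used on arrays 1, 2 and 3 had ratios below 0. On array 1, where the ratio was smallest, the spots ranged from -0.70 to -0.11. The signal stood well above background in all 3 wildtype pools and in 2 of the 3 Fgfrl1-/- pools.

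The size of the Egr2 difference depended on how background was treated. The offset of 50 that was added to both channels draws the ratio of dim spots towards 0. With an offset of 0 the log2 fold changes of Egr2 were -0.99, -1.43 and -1.62 (mean -1.35, adjusted p = 0.381), and with the ratios of the scanner software they were -1.65, -2.35 and -2.42 (mean -2.14, adjusted p = 0.161). Under these same scanner ratios Egr1 stood at -1.88, -2.77 and -2.82 (mean -2.49, adjusted p = 0.164), so that the difference between both genes shrank from -1.53 to -0.35. Under both of these settings 0 of the 41174 probes passed limma's test. On arrays 2 and 3 alone, with the offset of 50, Egr2 passed it (-0.67, adjusted p = 9.16e-05).

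Egr3, another zinc finger factor of the family, was near the limit of detection. Its brighter probe, at chr14:68817252-68817311 on mm8, stood well above background in 0 of 3 Fgfrl1-/- pools and in 2 of 3 wildtype pools. The measured levels were 5.95, 6.14 and 6.04 in the Fgfrl1-/- pools against 6.23, 6.29 and 6.35 in the wildtype pools. The detection bound for wildtype over Fgfrl1-/- was 1.19-fold, which equals the measured ratio to the digits printed and is no lower limit. The 95% confidence interval of the log2 fold change was -0.43 to -0.065. Limma's adjusted p was 0.189 for a log2 fold change of -0.25, which was -0.90 with an offset of 0 (adjusted p = 0.381), -1.33 with the scanner ratios (adjusted p = 0.517) and -0.062 for the mean of both probes (adjusted p = 0.699). The other Egr3 probe, at chr14:68814100-68814159, was not well above background in any pool and had a log2 fold change of 0.12 (adjusted p = 0.472). On arrays 2 and 3 alone the brighter probe was at -0.23 with an adjusted p of 0.0499.

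**Figure D2:**
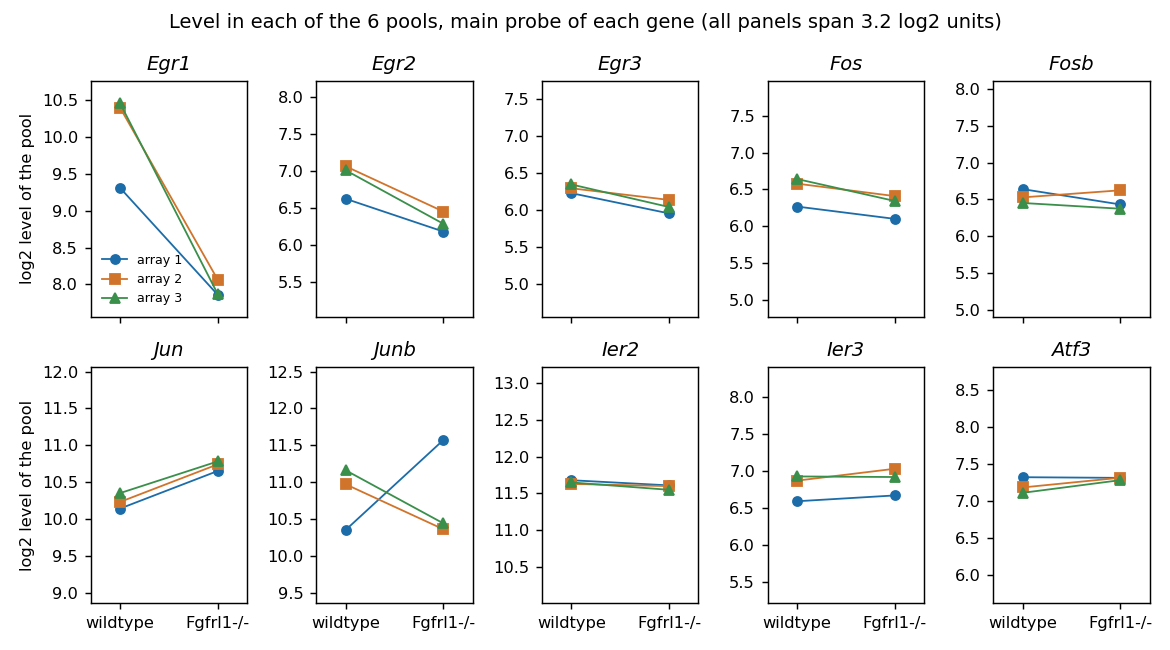
Each panel shows 1 gene, with the log2 level of the brighter probe in the wildtype and Fgfrl1-/- pools; a line joins the pools of 1 array, and all panels span the same range so that slopes can be compared. Only Egr1 and Junb have lines that span more than 1 unit, and the Junb lines cross.

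Fos, the classical partner of Jun in AP-1, was dim, with levels of 6.10, 6.41 and 6.34 in the Fgfrl1-/- pools and 6.27, 6.58 and 6.64 in the wildtype pools. The groups overlapped. The log2 fold changes were -0.17, -0.17 and -0.30 (mean -0.21, SD 0.0758, n = 3 arrays, unadjusted p = 0.0293, limma adjusted p = 0.246). Its probe at chr12:86366053-86366112 on mm8 is printed 10 times as well, and 7 of 9 used spots on array 1, 10 of 10 on array 2 and 9 of 9 on array 3 lay below 0. Its signal stood well above background in 2 of 3 pools of either genotype. Like Egr2, Fos had a larger difference with an offset of 0 (-0.55, adjusted p = 0.383) and with the scanner ratios (-1.06, adjusted p = 0.158), and its adjusted p was 0.0473 on arrays 2 and 3 alone (-0.23).

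Fosb, a relative of Fos, was at 6.43, 6.62 and 6.37 in the Fgfrl1-/- pools and at 6.64, 6.53 and 6.45 in the wildtype pools. These values overlapped, and the ratio changed sign between arrays. The mean log2 fold change was -0.063 (adjusted p = 0.803), and it was 0.023 with median centring in place of loess and 0.0092 without array 1. The 95% confidence interval of -0.28 to 0.15 does not reach the reduction of Egr1.

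Jun, a core subunit of AP-1, was the only one of the 10 genes whose brighter probe had higher values in Fgfrl1-/- on all 3 arrays. The probe is at chr4:94541191-94541250 on mm8, with levels of 10.65, 10.74 and 10.78 in the Fgfrl1-/- pools and 10.14, 10.23 and 10.35 in the wildtype pools. All Fgfrl1-/- values lay above all wildtype values. The log2 fold changes of 0.51, 0.51 and 0.43 (mean 0.48, SD 0.0448, n = 3 arrays) corresponded to a 1.40-fold higher level, and limma's adjusted p was 0.062. Of 9, 9 and 8 used spots on arrays 1, 2 and 3, 0 lay below 0. Jun passed the test on arrays 2 and 3 alone (0.47, adjusted p = 0.000945) and in a fit of the separate channels (0.48, adjusted p = 0.0324), while median centring in place of loess gave 0.21 (adjusted p = 0.942).

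**Figure D3:**
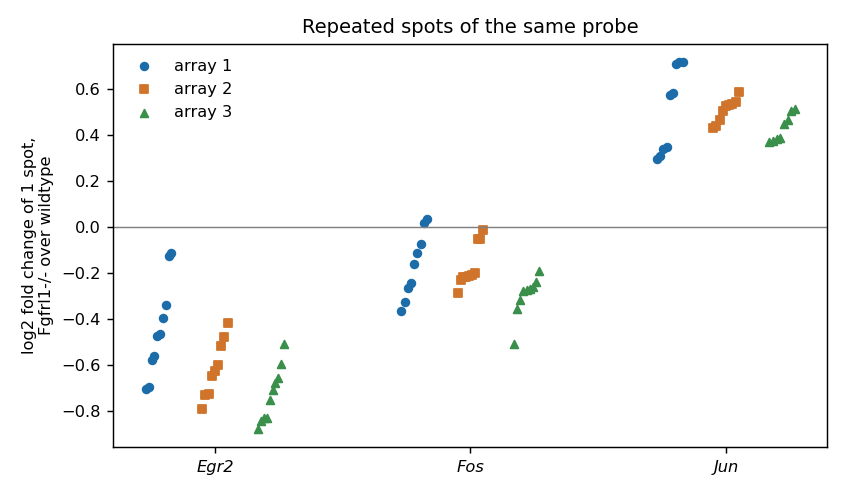
The vertical axis gives the log2 fold change of Fgfrl1-/- over wildtype of each single spot that was used, for the probes of Egr2, Fos and Jun; shapes and colours mark the arrays and spots are sorted by value within an array. All Egr2 spots lie below 0 and all Jun spots above 0, and the Jun spots of array 1 range from 0.30 to 0.71.

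Junb, another AP-1 protein, changed its sign between the slides. The level of its brighter probe was 11.57, 10.36 and 10.44 in the Fgfrl1-/- pools and 10.35, 10.97 and 11.16 in the wildtype pools. The Fgfrl1-/- pool was thus the higher one on array 1 and the lower one on arrays 2 and 3. The log2 fold changes were 1.23, -0.60 and -0.72 (mean -0.032, SD 1.09, adjusted p = 0.984), and those of the other probe were 0.50, -0.41 and -0.38 (mean -0.098, adjusted p = 0.874). The probes, at chr8:87867049-87867108 and chr8:87867087-87867146 on mm8, overlap each other and are not independent. On arrays 2 and 3 alone both passed the test, with -0.66 (adjusted p = 1e-04) for the brighter one and -0.40 (adjusted p = 0.00256) for the other. The mean of the brighter probe was 0.25 without array 2, 0.31 without array 3 and 0.28 with 1 value per slide.

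The order seen for Junb, above 0 on array 1 and below 0 on arrays 2 and 3, was also found for 11 of 36 other early response genes (30.6%), for 4 of 24 genes of the SRF, TCF and ERK cascade (16.7%) and for 16.1% of all probes. This order was chosen for counting after the Junb values were seen, and array 1 differs from the others in slide, software version and embryos at the same time, which cannot be told apart. Without array 1, 5 of the 10 genes passed the test as lower (Egr1, Egr2, Egr3, Fos and Junb) and 1 as higher (Jun). In this fit of 2 arrays from 1 slide, 10.1% of all probes passed as lower and 8.49% as higher. Without array 2 or without array 3, 0 of the 10 genes and 0 of all probes passed limma's test.

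Ier2, Ier3 and Atf3 showed small differences of either sign. Ier2, an early response gene that encodes a nuclear protein, was bright, with levels of 11.61, 11.60 and 11.55 in the Fgfrl1-/- pools and 11.68, 11.63 and 11.65 in the wildtype pools. The groups did not overlap, but the mean log2 fold change was only -0.065 (SD 0.0281, 95% confidence interval -0.23 to 0.11, adjusted p = 0.734), and median centring gave -0.40 (adjusted p = 0.592). The other Ier2 probe was at -0.012 (adjusted p = 0.963). Ier3, which modulates cell survival, was at 6.67, 7.03 and 6.92 in the Fgfrl1-/- pools and at 6.59, 6.87 and 6.93 in the wildtype pools, with a mean log2 fold change of 0.077 (95% confidence interval -0.11 to 0.26, adjusted p = 0.701). Atf3, a stress-induced leucine zipper factor, was at 7.31, 7.32 and 7.28 against 7.32, 7.18 and 7.11, with a mean of 0.098 (95% confidence interval -0.089 to 0.29, adjusted p = 0.617). Both of these genes overlapped between the groups. In all, the Fgfrl1-/- pools lay wholly below the wildtype pools for 4 of the 10 genes (Egr1, Egr2, Egr3 and Ier2) and wholly above for 1 (Jun), against 7.22% and 6.79% of all probes.

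The ratio of Egr1 was compared with that of each other gene within each array. Egr1 was lower than all 9 other genes on all 3 arrays. The mean difference in log2 fold change was smallest against Egr2, with -1.01, -1.73 and -1.86 on arrays 1, 2 and 3 (mean -1.53, SD 0.458), and largest against Jun, with -1.96, -2.84 and -3.02 (mean -2.61, SD 0.566). For Egr3 the mean was -1.88, which rests on a signal not well above background in any Fgfrl1-/- pool and has no certain place in the order. The 6 others lay between -2.22 (Atf3) and -1.91 (Fos). An exact 2-sided sign-flip permutation test gave p = 0.25 for each of the 9 differences and 0.25 after adjustment over the 9, which is the smallest p that 3 arrays allow. The difference stayed below 0 in all alternative settings in which it could be computed, and the narrowest was that against Egr2 with the scanner ratios.

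Genes outside the group of 10 were searched for values near to those of Egr1, so that no other early gene of the group could be named here. Among 16360 genes with a brighter probe well above background in wildtype on all arrays, the 5 whose 3 log2 fold changes lay nearest to those of Egr1 by Euclidean distance were Fgf8 (0.401), Cdh4 (0.595), Wnt4 (0.669), Pcp4 (0.781) and Sp5 (0.824). Fgf8, a growth factor of early nephrons, had -1.66, -2.23 and -2.26, beside -1.45, -2.34 and -2.59 for Egr1. Wnt4, a signal for nephron induction, had -2.09, -2.35 and -2.77. All 5 passed limma's test, with adjusted p between 0.0201 and 0.0488. Since they were picked for nearness to Egr1, which had passed it, this count is no separate result. The authors had already reported all 5 as reduced on these same arrays.

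Further genes of the early response were counted from lists. Of 18 other Egr, Fos, Jun and Ier family members and leucine zipper partners, 15 were found on the array, and 1 fell and 0 rose, against 0.398% and 0.289% of all probes. Maff, a small Maf protein that lacks a transactivation domain, fell with log2 fold changes of -0.63, -0.67 and -0.57 (mean -0.62, adjusted p = 0.0419). The median of the list was 0.025.

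Of 38 other early response genes 36 were found, and 1 fell and 1 rose, against 0.398% and 0.289% of all probes. Dusp2, a nuclear phosphatase that inactivates ERK, fell with -0.75, -1.03 and -1.01 (mean -0.93, adjusted p = 0.0354). The authors had already reported Dusp2 as reduced on these same arrays. Btg2, an antiproliferative early gene, rose with 0.66, 0.96 and 0.91 (mean 0.84, adjusted p = 0.0399). At an unadjusted p below 0.05, 8 of the 36 were lower and 6 higher, against 8.2% and 7.69% of all probes, and their median was -0.060.

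Of 11 feedback genes of Fgf and ERK signaling 3 fell and 0 rose, against 0.398% and 0.289% of all probes. At an unadjusted p below 0.05, 9 were lower and 0 higher, against the 8.2% and 7.69% of all probes, and the median was -0.42. Etv4, an Ets transcription factor induced by Fgf signals, fell with a mean of -1.05 (adjusted p = 0.0416). Il17rd, a membrane inhibitor of Fgf signaling, fell with -0.97 (adjusted p = 0.0313), and Spry1, an intracellular inhibitor of the same pathway, with -0.94 (adjusted p = 0.0346). The authors had already reported these 3 genes as reduced on these same arrays. At the upper end of the list Spred3 had 0.053. Of these feedback genes and the 36 other early response genes together, 4 fell and 1 rose, against 0.398% and 0.289% of all probes. The 4 became 0 with an offset of 0, with the scanner ratios and without array 2 or array 3. They became 1 with dim probes left out, and 2 with quantile normalization and in the authors' table. Without array 1, 22 fell and 4 rose, against 10.1% and 8.49% of all probes in that fit. The difference between this list and the early genes was not tested.

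In the list of SRF, ternary complex factors and the ERK cascade, 0 of 24 genes passed limma's test in either direction, while 4 were lower and 3 higher at an unadjusted p below 0.05, against 8.2% and 7.69% of all probes. The values ran from -0.44 for Rps6ka3, a kinase downstream of ERK (adjusted p = 0.126), to 0.49 for Elk3, a ternary complex factor (adjusted p = 0.0791), with a median of 0.027.

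Heat shock and handling stress genes were counted because dissection can induce early genes. Of 14 genes 12 were found, 0 fell and 2 rose, against 0.398% and 0.289% of all probes. At an unadjusted p below 0.05, 4 were lower and 2 higher, against 8.2% and 7.69%, and the median was 0.032. The summed level of the 12, in which bright probes weigh most, was 171600 to 187100 in the Fgfrl1-/- pools and 205200 to 233300 in the wildtype pools. The groups did not overlap in this sum. Txnip, an inhibitor of thioredoxin, rose with 0.68, 0.69 and 0.68 (mean 0.68, adjusted p = 0.0379), and Ddit4, an inhibitor of mTOR signaling, with a mean of 0.76 (adjusted p = 0.0442). The lowest value was that of the chaperonin Hspe1 with -0.46 (adjusted p = 0.0706). The chaperones Hspd1, Hspa1a, Hsp90aa1 and Hspa8 also had all Fgfrl1-/- pools below all wildtype pools, while Txnip and Ddit4 had them above. These chaperones were named after their values were seen, so their lack of overlap is no separate result. Of the 12 genes, 5 had lower and 4 higher ratios on all 3 arrays, against 19.2% and 19.0% of all probes. Hspb1, Dnajb1, Hmox1, Gadd45a and Ddit3, also named after their values were seen, overlapped between the groups, with means from 0.0034 to 0.18. The part of handling in the Egr1 and Junb values was not tested.

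**Figure D4:**
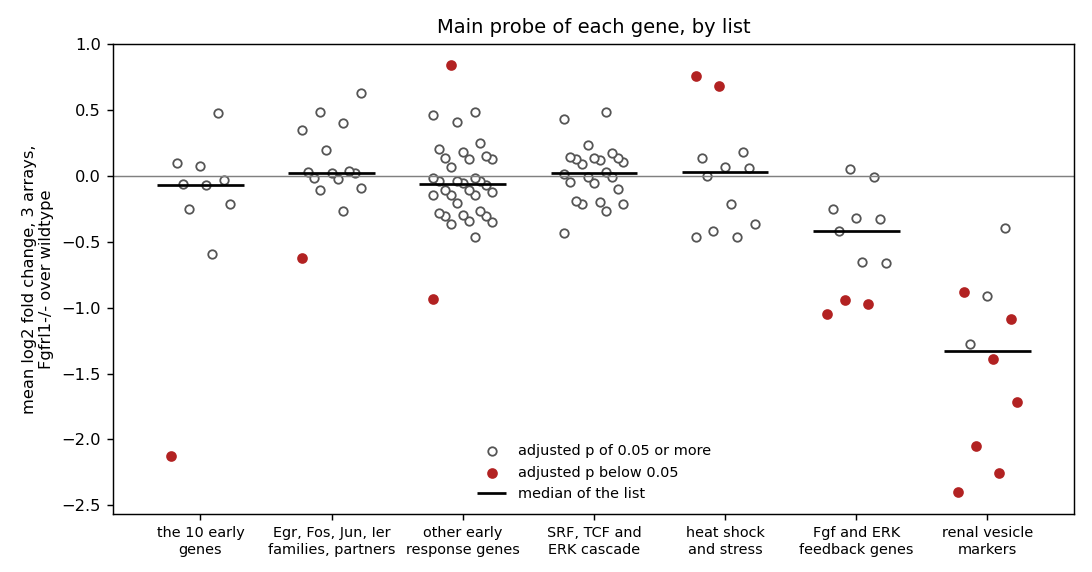
Each point is the mean log2 fold change over 3 arrays of the brighter probe of 1 gene, for the 10 early genes and for 6 lists; filled points passed limma's test at an adjusted p below 0.05 and black lines are medians. The early genes and their relatives lie around 0 with Egr1 at -2.13 far below, while the medians of the feedback genes and of the renal vesicle markers are -0.42 and -1.33. Both of these lists hold genes that the authors had already reported as reduced on these arrays, and so had they reported Egr1 and Dusp2.

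Markers of cell types that the rudiments can hold shifted in different directions. The counts below stand against 0.398% of all probes that fell and 0.289% that rose. At an unadjusted p below 0.05, 8.2% of all probes were lower and 7.69% higher. Of 10 markers of the renal vesicle, the first epithelial stage of the nephron, 7 fell (Wnt4, Dkk1, Fgf8, Lhx1, Hes5, Dll1 and Bmp2) and all 10 were lower at an unadjusted p below 0.05, with a median of -1.33. The authors had already reported these 7 as reduced on these same arrays, so their fall is no independent result. The summed level of the 10 was 5734 to 7581 in the Fgfrl1-/- pools and 12110 to 14720 in the wildtype pools, and all 10 were well above background in wildtype. Among 7 markers of the cap mesenchyme 2 fell (Cited1 and Tmem100), and 5 were lower and 0 higher at an unadjusted p below 0.05. Their median was -0.42, with sums of 20180 to 23660 in the Fgfrl1-/- pools against 28000 to 28190 in wildtype. Among 9 of the ureteric epithelium 1 fell (Wnt11) while 6 were higher at an unadjusted p below 0.05. The sums of these 9 were 41850 to 53130 against 34420 to 39060. Of 8 stromal markers 2 rose (Col1a1 and Pdgfra), and 5 were higher and 1 lower at an unadjusted p below 0.05, the lower one being Tcf21 with -0.48 (adjusted p = 0.127). The summed level of the 8, in which bright probes weigh most, was 131400 to 159500 in the Fgfrl1-/- pools against 95530 to 97590 in the wildtype pools. Of 9 macrophage markers 1 rose (C1qa) and 8 were higher at an unadjusted p below 0.05, with sums of 3329 to 4200 against 2570 to 2647. None of 7 endothelial and 9 erythroid markers passed limma's test, with 1 erythroid marker lower at an unadjusted p below 0.05. The part of these shifts in the values of Egr1, Jun and the other early genes was not tested.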

How the data were processed

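Median spot and local background intensities of both channels, deposited by the authors as output of Agilent Feature Extraction (9.5.3.1 for array 1, 10.5.1.1 for arrays 2 and 3, per the file headers), were analysed in R 4.3.3 with limma 3.58.1. Gene names are in the file of array 1 only, and the other arrays were joined by probe name. Of 45018 spots, 1639 were controls. Background was corrected with normexp and an offset of 50, and ratios were normalized within arrays by loess. The 107, 113 and 138 spots with an outlier flag were dropped and spots of a probe were averaged. Levels per pool were obtained after loess and Aquantile scaling. Ratios of Fgfrl1-/- over wildtype, which pair the pools of an array, were fitted with lmFit and eBayes and tested against 0 over 41174 probes, with Benjamini-Hochberg adjustment. A limma p-value or confidence interval uses the spread between these 3 pairs of pools, which eBayes draws towards a variance shared by all probes. An interval can therefore be narrower or wider than the 3 values alone would give. Precision remains limited by the small number of arrays. A detection bound sets the mean of the bright group against the lowest signal among probes well above background, or the dim probe's own signal where higher. The log10 ratios of the scanner software and a table of log2 ratios, both deposited by the authors, served as alternatives. The direction of that table, Fgfrl1-/- over wildtype, was found from its correlation with the scanner ratios (r between 0.705 and 0.718), and its steps are not given in the sources used here. The fit was tested on simulated data. Named were all probes of the 10 genes, Fgfrl1, the called, lowest and highest genes of 5 pathway lists and the called genes of 8 marker lists. Also named were the 5 genes outside the group of 10 that lay nearest to Egr1. The highest gene of 1 list is not reported here. Members and lists were chosen with earlier results of these data known, and a feature described as picked after its values were seen lies outside this rule. Probe positions are on mm8 from the files, promoters on GRCm38.p6 from RefSeq, and no position was carried from one build to the other.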

Additional observations from a re-analysis of the deposited data

How the results depend on the processing

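The direction of the Egr1 difference held in all 16 alternatives. Its call was lost with a normexp offset of 0 (-2.42), with the scanner ratios (-2.49), with dim probes left out (-2.13, adjusted p = 0.0525) and without array 2 or array 3, but not without array 1 (range -2.46 to -1.90). The count of early genes that fell was 0 in these first 3 settings and 0 to 5 with an array left out, and the count that rose was 1 with separate channels and 0 to 1 with an array left out. Their median log2 fold change was -0.20 with the scanner ratios, -0.18 with median centring and -0.15 to -0.053 with an array left out. Over all probes, the counts of falls and rises were 0 and 0 with an offset of 0 and with the scanner ratios, 91 and 2 with median centring, 50 and 15 with quantile normalization, 46 and 14 with dim probes left out, and 32 and 4 in the authors' table. Without background subtraction 72 rose, and with separate channels 224 rose. With an array left out, 0 to 4172 fell and 0 to 3494 rose, the highest being without array 1. The single rise among the other early response and feedback genes was lost with median centring, quantile normalization, dim probes left out, the mean of a gene's probes, separate channels and the authors' table. Median centring left the ratios of bright probes lower by a median of 0.30. The Egr1 minus Egr2 difference was -1.07 with an offset of 0 and -0.35 with the scanner ratios, and the Egr1 minus Egr3 difference was -1.16 with the scanner ratios. Fosb reversed to 0.023 with median centring and ranged from -0.14 to 0.0092 with an array left out, being above 0 without array 1. Junb reversed to 0.28 with 1 value per slide and ranged from -0.66 (without array 1) over 0.25 (without array 2) to 0.31 (without array 3). Causes were not tested. The ratio within an array pairs the pools, and in the fit of separate channels, which had no replicate block, Jun passed the test (0.48, adjusted p = 0.0324) while the calls of the other 9 genes did not change. The slide as a random block could not be fitted, because with 3 arrays on 2 slides no correlation was estimated. Egr3 and Fos, which were near background, are limited by signal.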
